A study of Mus musculus with 31 samples.

Results

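Cry1, Cry2 and Ciart, 3 repressors of the circadian clock, were followed together with Csnk1d, Csnk1e and Btrc, which encode 2 kinases and a ubiquitin ligase subunit acting on clock proteins. The 6 genes were chosen by symbol, with their measured differences between control and deltamethrin in these libraries already known, from the 48795 genes of the count table, and all 6 passed the filter on low counts. The study sequenced total RNA from brain homogenate of Mus musculus and compared 13 control with 18 deltamethrin samples. Deltamethrin, a pyrethroid, slows the closing of sodium channels in nerve cells, and the study's design text describes the exposure as developmental. The labels give the agent and the tissue only, so strain, age, dose, litter and the clock time of collection, on which these genes depend, are not known here. Nothing in the labels says whether the libraries came from separate animals, and the p-values below measure the spread between these libraries.

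In the mammalian clock, CLOCK and BMAL1 (the product of Arntl) bind E-box elements and drive transcription of the Per and Cry genes, whose proteins return to the nucleus and block that drive. CRY1 and CRY2 are the main repressors of this loop, and CIART (also called CHRONO) is a further repressor that binds BMAL1. The kinases CK1 delta (Csnk1d) and CK1 epsilon (Csnk1e) phosphorylate PER proteins, and the F-box protein beta-TrCP (Btrc) then recruits them for ubiquitination and degradation. Loss of CRY1 shortens and loss of CRY2 lengthens the period of mouse activity rhythms, so the balance between the paralogs sets the pace of the clock.

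Promoter sequences show where these genes carry the E-box letters CACGTG or the related letters CACGTT, read on both strands (the reverse of the second is AACGTG). RefSeq promoter windows of 300 bases (250 before and 50 after a transcript start, GRCm38.p6) were found for 4 of the 6 genes, Cry1, Cry2, Ciart and Csnk1e. Each stretch below ends just before the most upstream start of its gene in either RefSeq or GENCODE M21. They are printed because they set Ciart apart from the cryptochromes, with capitals marking both kinds of letters.
Ciart, chr3:95882258-95882478, minus strand: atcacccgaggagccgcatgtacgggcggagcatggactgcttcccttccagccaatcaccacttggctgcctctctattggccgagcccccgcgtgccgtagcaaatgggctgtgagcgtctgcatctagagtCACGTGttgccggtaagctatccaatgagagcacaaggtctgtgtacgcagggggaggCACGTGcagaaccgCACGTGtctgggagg
Cry1, chr10:85185065-85185304, minus strand: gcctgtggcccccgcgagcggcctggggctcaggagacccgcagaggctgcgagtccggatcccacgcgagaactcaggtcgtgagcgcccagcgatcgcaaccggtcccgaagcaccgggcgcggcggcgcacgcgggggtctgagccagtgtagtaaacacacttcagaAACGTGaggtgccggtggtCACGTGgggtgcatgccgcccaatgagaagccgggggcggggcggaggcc
Cry2, chr2:92434086-92434319, minus strand: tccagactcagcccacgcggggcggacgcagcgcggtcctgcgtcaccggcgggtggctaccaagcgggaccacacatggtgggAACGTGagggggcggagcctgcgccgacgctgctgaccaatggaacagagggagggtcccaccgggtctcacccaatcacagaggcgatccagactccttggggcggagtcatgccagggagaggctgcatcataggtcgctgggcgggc

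Ciart held 3 copies of CACGTG, starting at -116, -58 and -44 relative to the RefSeq transcript start of its window. All distances are counted from the start of this kind in each gene's window. The printed stretches leave out the last 29 bases before it for Ciart, 10 for Cry1 and 16 for Cry2. Of the 32851 windows of this length, 7.15% held at least 1 copy, 0.594% at least 2 and 0.0883% (29 windows) 3 or more. Cry1 held 1 copy at -60 and 1 AACGTG at -79. Cry2 held no CACGTG and 1 AACGTG at -166, and CACGTT or AACGTG was found in 4.68% of all windows. The 4 Csnk1e windows, some of which overlap, held neither. Among 12 other clock genes 10 had windows, all but Per2 and Bhlhe40. CACGTG was found in those of Per1, Tef and Bhlhe41, with 0 genes holding 2 copies in a window. Copies outside the windows were not searched for in any gene. The D-box letters TTANGTAA, the cAMP response letters TGACGTCA and the ROR letters AGGTCA were found in none of the windows of these 4 genes, against 2.32%, 1.79% and 16.3% of all windows. These are matches of letters and not shown to be bound.

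**Figure D1:**
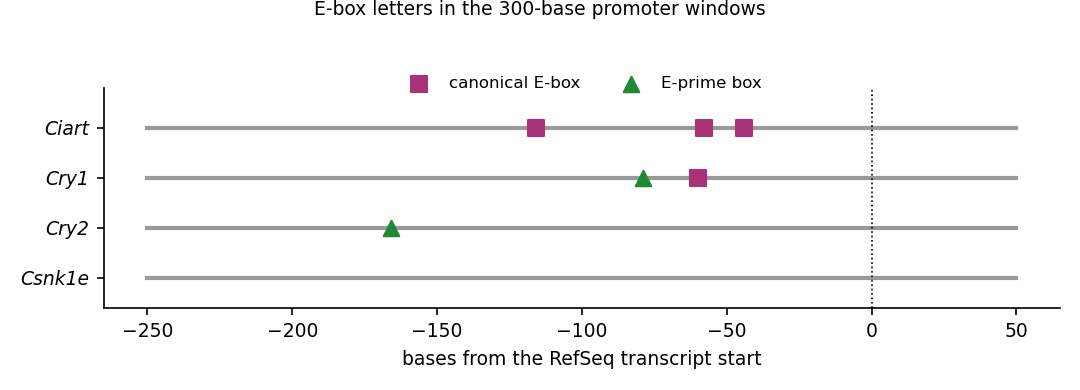
E-box letters in the promoter windows of Ciart, Cry1, Cry2 and Csnk1e. The x axis is the distance in bases from the RefSeq transcript start of each window (dotted line). Squares are CACGTG and triangles CACGTT or AACGTG, and the Csnk1e line stands for its 4 windows. Ciart carries 3 squares, Cry1 1 square and 1 triangle, Cry2 1 triangle and Csnk1e none.

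Libraries held 17570311 to 38680621 counts. Mitochondrial rRNA took 8.49 to 40.2% of counts in control and 7.32 to 26.3% in deltamethrin libraries, and control replicates 2 (40.2%) and 7 (27.4%) had the highest shares. Levels in CPM (reads of a gene per 1000000 counts of a library) were therefore scaled by TMM factors, which ran from 0.613 to 1.08. No pair of libraries agreed within sampling noise (smallest chi-square per degree of freedom 6.20 over 465 pairs). Markers of neurons, astrocytes and oligodendrocytes were high in all libraries, with lowest summed levels of 2748, 1344 and 4054 CPM. By log2 fold change, 7 of 8 choroid plexus, 8 of 8 striatum and 5 of 5 blood markers were negative in deltamethrin, and 7 of 8 cerebellum, 6 of 6 astrocyte and 6 of 6 endothelium markers were positive, with 0 passing adjustment over all genes (edgeR). Other lists were mixed, with 5 positive and 3 negative for neurons, 2 and 4 for oligodendrocytes and 4 and 2 for microglia. Of all 19529 genes tested 9864 were positive and 9665 negative. Summed marker levels of the groups overlapped, at 268 to 1300 against 249 to 729 CPM for choroid plexus, 240 to 623 against 281 to 758 CPM for cerebellum and 544 to 1052 against 443 to 1144 CPM for striatum (control against deltamethrin). In such bulk tissue, fewer cells of a type and less RNA per cell cannot be told apart.

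Levels can be compared between genes only per length of transcript. Per kilobase of merged exons (GENCODE M21), Csnk1d stood highest at 16 ± 2.61 CPM (SD, n = 31), with Cry2 next at 15.1 ± 2.35. These 2 neighbours overlapped in range, and Csnk1d was the higher in 25 of 31 libraries. Csnk1e followed at 7.51 ± 1.06, and Cry2 exceeded it in 31 of 31 libraries. Cry1 (6.73 ± 0.570), Ciart (5.91 ± 1.34) and Btrc (5.0 ± 0.640) completed the order, and each of these steps was smaller than the larger of the 2 neighbours' SDs but larger than the smaller one. Csnk1e was above Cry1 in 26, Cry1 above Ciart in 22 and Ciart above Btrc in 23 of 31 libraries. The place of Btrc rests on an annotated exon length of 16908 bases, the longest of the 6, since transcripts with shorter ends would raise its level per kilobase.

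The cryptochrome and kinase pairs each had a member of higher level. Per kilobase, Cry2 was 2.19-fold Cry1 in control (range 1.43 to 3.28, n = 13) and 2.26-fold in deltamethrin libraries (1.64 to 3.08, n = 18). Csnk1d was 2.12-fold Csnk1e in both groups, with ranges of 1.76 to 2.34 and 1.82 to 2.40. The size of these folds rests on merged exons of 6320 (Cry2), 3340 (Cry1), 5022 (Csnk1d) and 6590 bases (Csnk1e). Before division by length, the mean log2 ratio of Cry2 to Cry1 was 2.05 in control and 2.10 in deltamethrin libraries. That of Csnk1d to Csnk1e was 0.69 in both groups. The log2 ratio of Csnk1d to Csnk1e varied less between libraries (SD 0.15 in control and 0.11 in deltamethrin) than that of Cry2 to Cry1 (SD 0.28 and 0.27). Both ratios are taken within a library and are independent of its scaling.

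The comparison of control with deltamethrin was known when these genes were chosen, so their values in it are a description. The fit over all 19529 genes tested (edgeR quasi-likelihood test, Benjamini-Hochberg adjustment) called 0 genes at an adjusted p under 0.05, 0% of those tested, and 0 of the 6. At an unadjusted p under 0.05 it called 853 genes, 4.37%, of which 462 (2.37% of those tested) were lower in deltamethrin. Of the 6 genes 1, Ciart, was under that unadjusted threshold (p = 6.27e-05, edgeR). The 6 had 3 positive and 3 negative log2 fold changes with a median of -0.0026, against a median of 0.0014 over all genes.

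**Figure D2:**
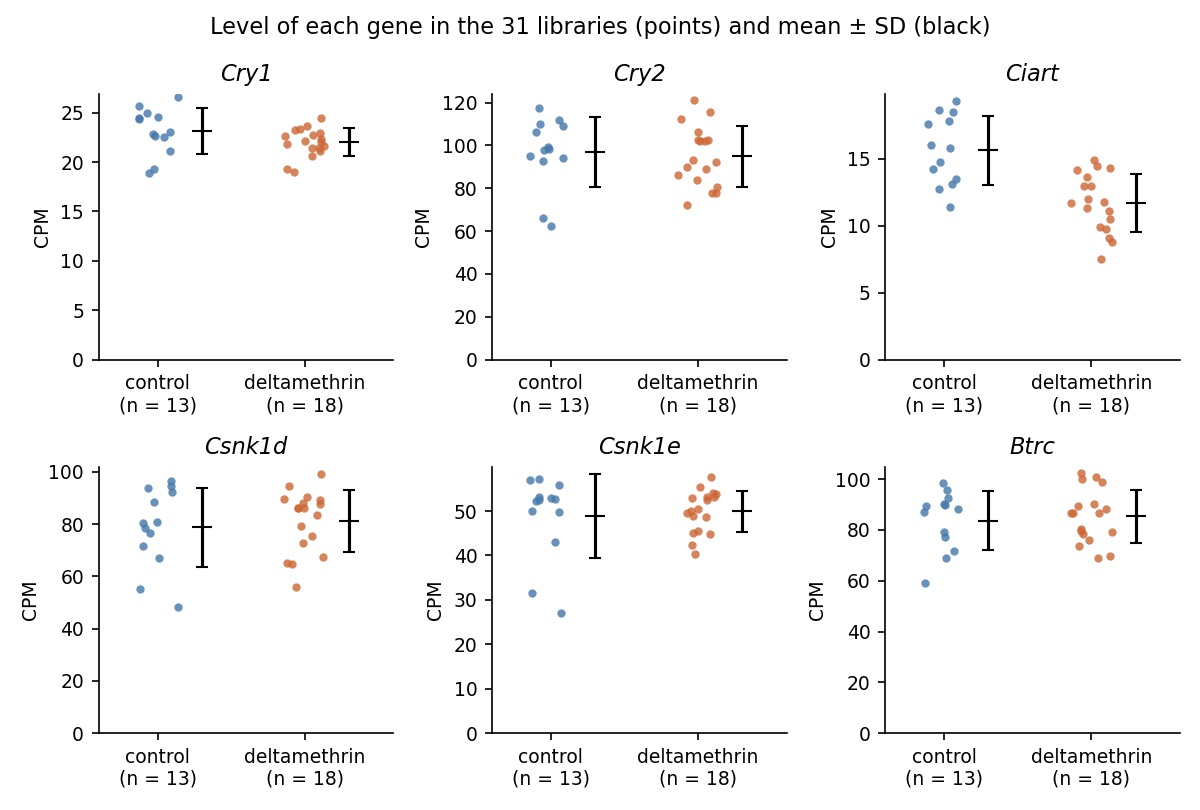
CPM of each of the 6 genes (y axis, from 0) in the 13 control and 18 deltamethrin libraries (points), with the mean ± SD in black. Ciart has 8 deltamethrin libraries below the lowest control, and for the other 5 genes no deltamethrin library lies below the lowest control. Above the highest control lie 4 deltamethrin libraries for Btrc, 1 each for Cry2, Csnk1d and Csnk1e, and 0 for Ciart and Cry1.

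Among the repressors, Ciart (ENSMUSG00000038550, chromosome 3, 95878503 to 95882251, minus strand, GENCODE M21 on GRCm38) was the gene whose groups lay farthest apart. Its lowest, median and highest levels were 11.4, 15.8 and 19.3 CPM in control and 7.54, 11.7 and 14.9 CPM in deltamethrin libraries. All 18 deltamethrin libraries lay below the control median and 8 below the lowest control, while 7 of 13 control libraries lay above the highest deltamethrin library. The share of all genes with as many libraries outside the range of the other group was not computed. On the log2 scale the difference was -0.42 ± 0.09 (SE; adjusted p = 0.612 by edgeR and 0.106 by DESeq2). An antisense gene, C920021L13Rik, spans Ciart but shares 0 exon bases with it and had 4 to 45 counts per library, against 170 to 668 for Ciart.

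Immediate early genes, which report recent neuronal activity, were read in the same libraries as a mean over 12 genes. On the log2 CPM scale it ran from 3.10 over a median of 4.09 to 5.45 in control and from 3.10 over 3.62 to 5.56 in deltamethrin libraries. All 12 had a negative log2 fold change (median -0.31) and 0 passed adjustment over all genes (edgeR), with 3, Ier2 (-0.45 ± 0.14), Dusp1 (-0.37 ± 0.14) and Npas4 (-0.74 ± 0.34), under the unadjusted threshold, against 2.37% of all genes lower under it. With that level as a covariate, chosen after seeing the data, the log2 fold change of Ciart was -0.35. With the mitochondrial rRNA share as a covariate it was -0.41.

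Cry1 (ENSMUSG00000020038, chromosome 10, 85131700 to 85185064, minus strand) was held in a narrow band. Its lowest, median and highest levels were 18.9, 23 and 26.6 CPM in control and 19, 22.1 and 24.4 CPM in deltamethrin libraries. All 18 deltamethrin libraries lay within the control range, and 4 control libraries lay above the highest of them. The log2 fold change was -0.07 ± 0.05 (adjusted p = 0.813, edgeR). Its biological coefficient of variation, the spread beyond counting noise, was 9.42%, and only 2.56% of the genes tested had a lower one. The median over all genes was 18.3%, and Ciart (17.4%), Csnk1d (17.4%), Cry2 (16.5%), Csnk1e (15.5%) and Btrc (13.9%) were nearer to it.

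Cry2 (ENSMUSG00000068742, chromosome 2, 92403646 to 92434043, minus strand) varied within both groups. Its biological coefficient of variation was 16.5%, against a median of 18.3% over all genes. Its lowest, median and highest levels were 62.3, 98.5 and 117 CPM in control and 72.4, 92.6 and 121 CPM in deltamethrin libraries. The groups overlapped over nearly their whole range, with 17 of 18 deltamethrin libraries inside the control range, and the lowest level was in control replicate 2. The log2 fold change was -0.03 ± 0.08 (adjusted p = 0.933, edgeR), and it was 0.0014 without control replicate 4. Ciart per Cry2 stood at 0.452 in control (range 0.313 to 0.708) and 0.343 in deltamethrin libraries (0.205 to 0.490), per kilobase.

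The 2 kinases had overlapping levels in the groups. Csnk1d (ENSMUSG00000025162, chromosome 11, 120961749 to 120991330, minus strand) had 48.1, 80.5 and 96.3 CPM as its lowest, median and highest level in control and 56.1, 86.1 and 99.2 CPM in deltamethrin libraries. Csnk1e (ENSMUSG00000022433, chromosome 15, 79417856 to 79455566, minus strand) had 27.1, 52.5 and 57.3 CPM in control and 40.4, 50.3 and 57.7 CPM in deltamethrin libraries. For both genes 17 of 18 deltamethrin libraries lay inside the control range, and 2 control libraries, replicates 2 and 7, lay below every deltamethrin library. The log2 fold changes were 0.04 ± 0.09 for Csnk1d (adjusted p = 0.918) and 0.03 ± 0.08 for Csnk1e (adjusted p = 0.940, edgeR). Without control replicate 2 they were -0.0052 and -0.025.

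Btrc (ENSMUSG00000025217, chromosome 19, 45363734 to 45530013, plus strand) had 59.2, 88.4 and 98.3 CPM as its lowest, median and highest level in control and 69.0, 86.5 and 103 CPM in deltamethrin libraries. The groups overlapped, with 4 deltamethrin libraries above the highest control and 2 control libraries below the lowest deltamethrin library. Its log2 fold change was 0.03 ± 0.07 (adjusted p = 0.932, edgeR), and -0.0095 without control replicate 2. Overlapping genes on the other strand of Cry2, Csnk1d, Csnk1e and Btrc shared at most 4.67% of their exon bases and had at most 163 counts in a library.

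**Figure D3:**
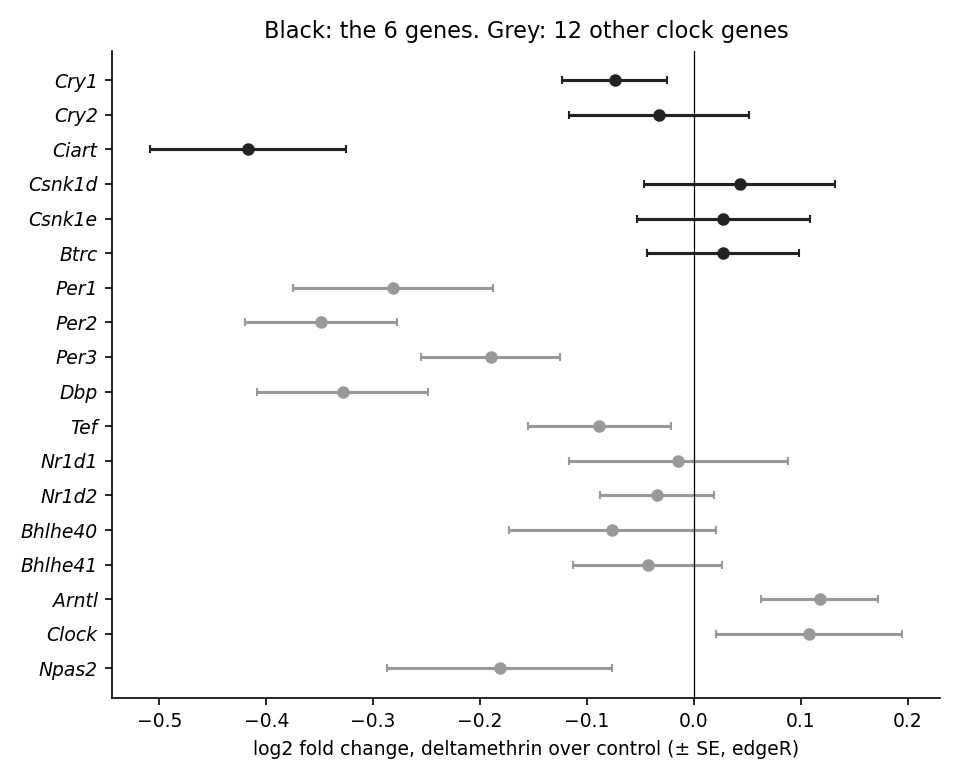
Log2 fold change of deltamethrin over control (x axis, point, with ± 1 SE) for the 6 genes (black) and 12 other clock genes (grey). Ciart at -0.42 lies beside Per2 (-0.35) and Dbp (-0.33), while the other 5 genes lie between -0.07 and 0.04.

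The wider turnover machinery was described from lists of 12 kinases, 16 genes of the ubiquitin system and 6 phosphatases. Of these 34 genes 21 were higher and 13 lower in deltamethrin (median log2 fold change 0.020), and 0 passed adjustment over all genes (edgeR). At an unadjusted p under 0.05 there were 2, against 4.37% of all genes. Dtl, a substrate receptor of CUL4 ligases, had 4.74 ± 0.957 CPM in control (SD, n = 13) and 5.66 ± 1.19 CPM in deltamethrin libraries (SD, n = 18), a log2 fold change of 0.26 ± 0.11. Siah2, a RING-type ubiquitin ligase, stood at 15.2 ± 1.67 in control and 13.9 ± 1.62 CPM in deltamethrin libraries, with -0.13 ± 0.06 on the log2 scale. The smallest unadjusted p among the kinases was that of Csnk2a1, a catalytic subunit of casein kinase 2 (log2 fold change 0.10 ± 0.05), and among the phosphatases that of Ppp1ca, a catalytic subunit of protein phosphatase 1 (-0.19 ± 0.10). Fbxw11, the paralog of Btrc, had a log2 fold change of 0.04 ± 0.06, and it was chosen after its value was seen.

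Of the 12 other clock genes, 10 were lower and 2 higher (median -0.082), with 0 passing adjustment over all genes (edgeR). Under the unadjusted threshold 4 were lower, with log2 fold changes of -0.28 ± 0.09 for Per1, -0.35 ± 0.07 for Per2, -0.19 ± 0.06 for Per3 and -0.33 ± 0.08 for Dbp, and 1 was higher, Arntl at 0.12 ± 0.05. Of all genes tested, 4.37% were under that threshold in either direction and 2.37% were lower.

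How the 6 genes vary from library to library within a group does not use the comparison by which they were chosen. Each group's mean log2 CPM was subtracted, and Pearson's r and Spearman's rho were computed over the 31 libraries with two-sided permutation tests that shuffled libraries within groups (100000 resamples, smallest p 1e-05). The 6 genes fell into 1 tightly correlated set of 4, Cry2, Csnk1d, Csnk1e and Btrc, and 2 genes outside it, Cry1 and Ciart. Of the 15 pairs 6 passed an adjusted p of 0.05, and these were the 6 pairs within the set. Cry2 and Csnk1d had the highest correlation (r = 0.94, rho = 0.93, permutation p = 1e-05 for each, adjusted 2.5e-05 for r over 15 pairs). Their r was 0.96 within control, 0.92 within deltamethrin and 0.90 without control replicates 2 and 7, the 2 libraries farthest from the median of Cry2. Csnk1d and Btrc (r = 0.91), Cry2 and Btrc (0.90) and Cry2 and Csnk1e (0.90) followed, with the same p. Csnk1e and Btrc had the lowest of the 6 (r = 0.74, rho = 0.61, permutation p = 1e-05 and 0.00027, adjusted 2.5e-05 for r; 0.79 within control, 0.78 within deltamethrin and 0.60 without the same libraries).

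The paralogs differed in this respect. Csnk1d and Csnk1e followed one another (r = 0.87, rho = 0.77, permutation p = 1e-05 for each, adjusted 2.5e-05 for r), with 0.90 within each group and 0.81 without control replicate 2 and deltamethrin replicate 4. Cry1 and Cry2 had an r of -0.01 (rho = -0.05, permutation p = 0.979 and 0.770, adjusted 0.995 for r), at 0.28 within control and -0.41 within deltamethrin. Whether those within-group values differ was not tested. Cry1 and Ciart had an r of 0.33 (rho = 0.34, permutation p = 0.0624 and 0.0645, adjusted 0.134 for r). None of the 8 pairs of Cry1 or Ciart with the set of 4 passed, with r from -0.31 to 0.13.

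**Figure D4:**
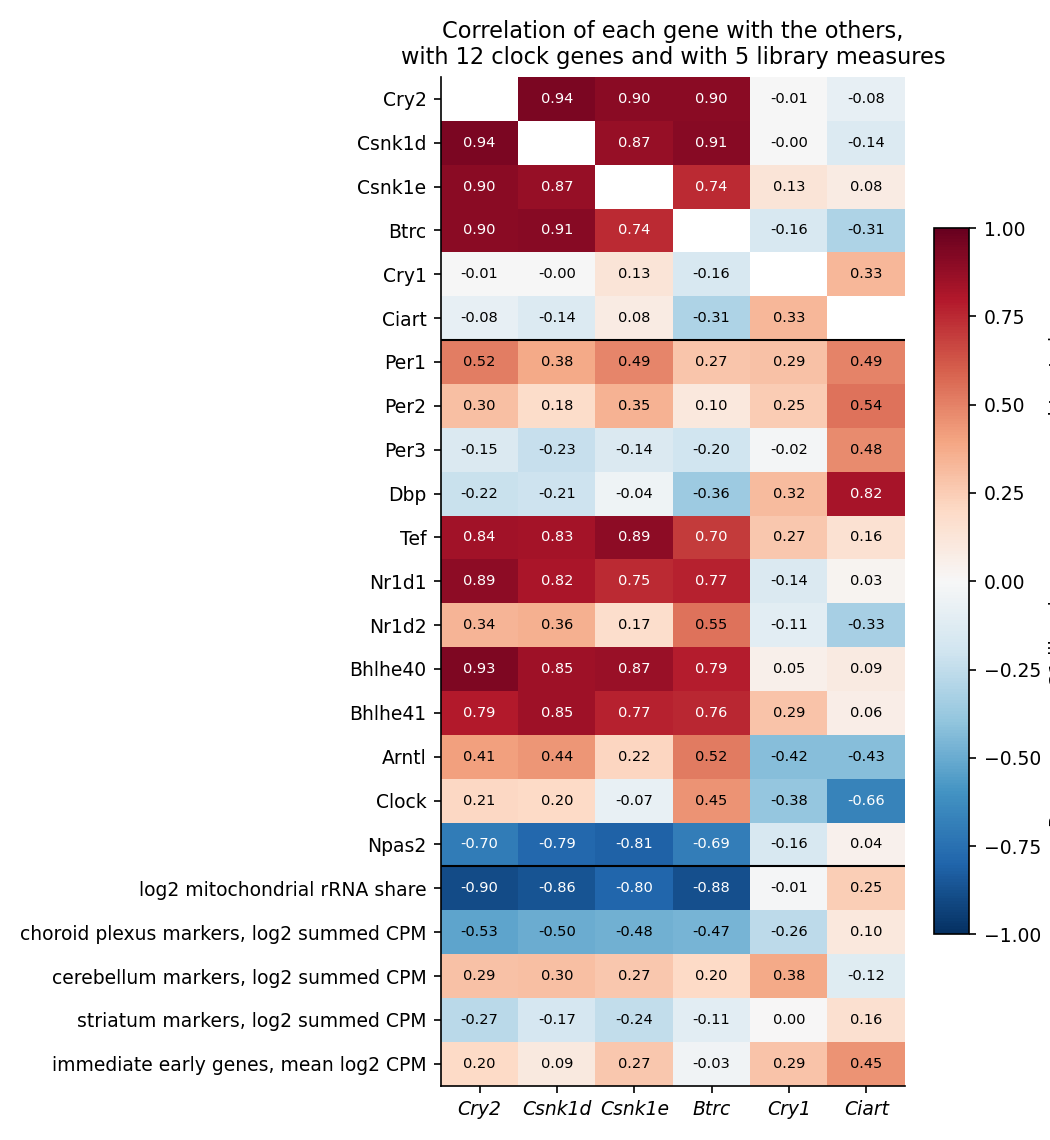
Pearson r of the 6 genes (columns) with each other, with 12 other clock genes and with 5 library measures (rows), over 31 libraries with group means subtracted; red is positive and blue negative. Cry2, Csnk1d, Csnk1e and Btrc form a block of r from 0.74 to 0.94 and share an r of -0.80 to -0.90 with the mitochondrial rRNA share, while Ciart is highest with Dbp (0.82) and lowest with Clock (-0.66).

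The set of 4 moved with the makeup of the libraries. Against the log2 mitochondrial rRNA share, r was -0.90 for Cry2, -0.88 for Btrc, -0.86 for Csnk1d and -0.80 for Csnk1e (rho -0.90, -0.87, -0.88 and -0.73; permutation p = 1e-05 for each r, adjusted 7.5e-05 over 30 pairs of gene and library measure). For Cry2 it was -0.89 within control, -0.91 within deltamethrin and -0.84 without control replicates 2 and 7. Cry1 had an r of -0.01 and Ciart of 0.25 (permutation p = 0.965 and 0.179). The same 4 genes had an r of -0.47 to -0.53 with the summed choroid plexus markers (adjusted permutation p = 0.0214 to 0.0417), at -0.74 to -0.86 within control and -0.18 to 0.014 within deltamethrin. By rho only Cry2 and Csnk1d passed (-0.50 and adjusted permutation p = 0.0261 for each). Btrc (rho = -0.43, adjusted permutation p = 0.0576) and Csnk1e (-0.33, 0.165) did not. Without control replicates 2 and 7 the r with these markers was -0.25 for Cry2 and -0.03 for Csnk1e, and without control replicate 2 and deltamethrin replicate 4 it was -0.53 for Csnk1d and -0.45 for Btrc. The part of choroid plexus content in the correlations among these genes was not tested.

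Many genes share this pattern, and the correlations among the 4 are read against it. An r above 0.5 was reached by 22.6% of all genes with Cry2, 22.9% with Csnk1d, 20.7% with Csnk1e and 23.4% with Btrc, against 8.44% with Ciart and 1.71% with Cry1. Csnk1d ranked 90 of 19528 genes by r with Cry2, Btrc 351 and Csnk1e 393. After the mitochondrial rRNA share was regressed out of both genes, 5 of the 6 pairs kept an adjusted permutation p under 0.05, with r = 0.75 for Cry2 and Csnk1d, 0.69 for Cry2 and Csnk1e, 0.62 for Csnk1d and Btrc, 0.60 for Csnk1d and Csnk1e and 0.55 for Cry2 and Btrc. The pair of Csnk1e and Btrc did not (r = 0.15, adjusted permutation p = 0.537), while Ciart and Csnk1e, at 0.08 before, then passed (r = 0.47, adjusted permutation p = 0.0167). No share or rank over all genes was computed after this regression, here or for the pairs with other clock genes below. Whether the values that remain are higher than those of most genes was therefore not tested. The genes with the highest r were Clip2 (0.98), Actn4 (0.98) and Mpp2 (0.97) for Cry2, Ywhag, Pacsin1 and Ina (0.97 each) for Csnk1d, Klc2 (0.96), Sncb (0.95) and Cplx1 (0.95) for Csnk1e, and Myadm, Scrn1 and Trim32 (0.97 each) for Btrc, each over 31 libraries.

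Of the 12 other clock genes Ciart passed with 6, of which 4 were positive (Dbp, Per1, Per2 and Per3) and 2 negative (Clock and Arntl). It did not pass with Nr1d1 (r = 0.03), Npas2 (0.04), Bhlhe41 (0.06), Bhlhe40 (0.09), Tef (0.16) or Nr1d2 (-0.33). After the mitochondrial rRNA share was regressed out, of these only Bhlhe40 and Tef passed with Ciart (r = 0.55 and 0.52, adjusted permutation p = 0.0073 and 0.0121). Without that regression Cry1 passed with 2, Cry2 with 7, Csnk1d and Csnk1e with 6 each and Btrc with 8. The share of all genes passing the same cutoff was not computed, so these counts have no background beside them. An r above 0.5 alone was reached by 20.7 to 23.4% of all genes with the set of 4. With Ciart it was reached by 8.44% and with Cry1 by 1.71%. By r with Ciart, the highest of the 19528 genes ranked was Dbp, a D-box transcription factor whose own gene is driven by CLOCK and BMAL1. Its r was 0.82 (rho = 0.82, permutation p = 1e-05 for each, adjusted 4.2e-05 for r over 72 pairs of gene and clock gene). The r was 0.80 within control, 0.85 within deltamethrin and 0.78 without deltamethrin replicate 3 and control replicate 5. Plk3 (0.79) and Tpd52l2 (0.76) came next. With the mitochondrial rRNA share or the immediate early level regressed out, r with Dbp was 0.81 and 0.85.

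Clock, which encodes the activator partner of BMAL1, ran opposite to Ciart (r = -0.66, rho = -0.60, permutation p = 6e-05 and 0.00073, adjusted 0.000216 for r). It ranked 19456 of 19528 genes, with r of -0.59 within control, -0.70 within deltamethrin and -0.65 without the same 2 libraries. Without scaling factors the r was -0.19 (adjusted permutation p = 0.317). The Period genes, partners of the cryptochromes, had positive values with Ciart, at 0.54 for Per2, 0.49 for Per1 and 0.48 for Per3 (rho 0.53, 0.53 and 0.38; permutation p for r = 0.00128, 0.00482 and 0.00772, adjusted 0.00384, 0.0129 and 0.0199). Among all 19528 genes these ranked 1173 (Per2), 1711 (Per1) and 1993 (Per3) by r with Ciart, so more than 1000 genes had a higher r than each. The r of Per2 was 0.80 within control and 0.33 within deltamethrin. That of Per3 was 0.26 without deltamethrin replicate 3 and control replicate 5, and its adjusted permutation p was 0.0923 without the first of these and 0.0601 without the second. With the mitochondrial rRNA share regressed out, r was 0.71 for Per1, 0.64 for Per2 and 0.48 for Per3 (adjusted permutation p = 0.00024, 0.000514 and 0.0248). With the immediate early level regressed out, r was 0.28 for Per1 and 0.38 for Per2 (adjusted permutation p = 0.223 and 0.0632). Ciart itself had an r of 0.45 with the immediate early level (rho = 0.41, permutation p = 0.0111, adjusted 0.0415 for r, 0.43 without the same 2 libraries). Arntl had an r of -0.43 with Ciart (rho = -0.48, permutation p = 0.0205, adjusted 0.0421) and 0.12 without scaling factors, and its call was lost with the mitochondrial rRNA share or the immediate early level regressed out (adjusted permutation p = 0.0853 and 0.151) and in 14 of the 31 fits without 1 library, those without control replicate 1, 4, 6, 7 or 10 or deltamethrin replicate 1, 5, 7, 8, 9, 10, 12, 14 or 17 (0.0502 to 0.0891). The pairs of Ciart and of Cry1 with clock genes were chosen after their values were seen.

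**Figure D5:**
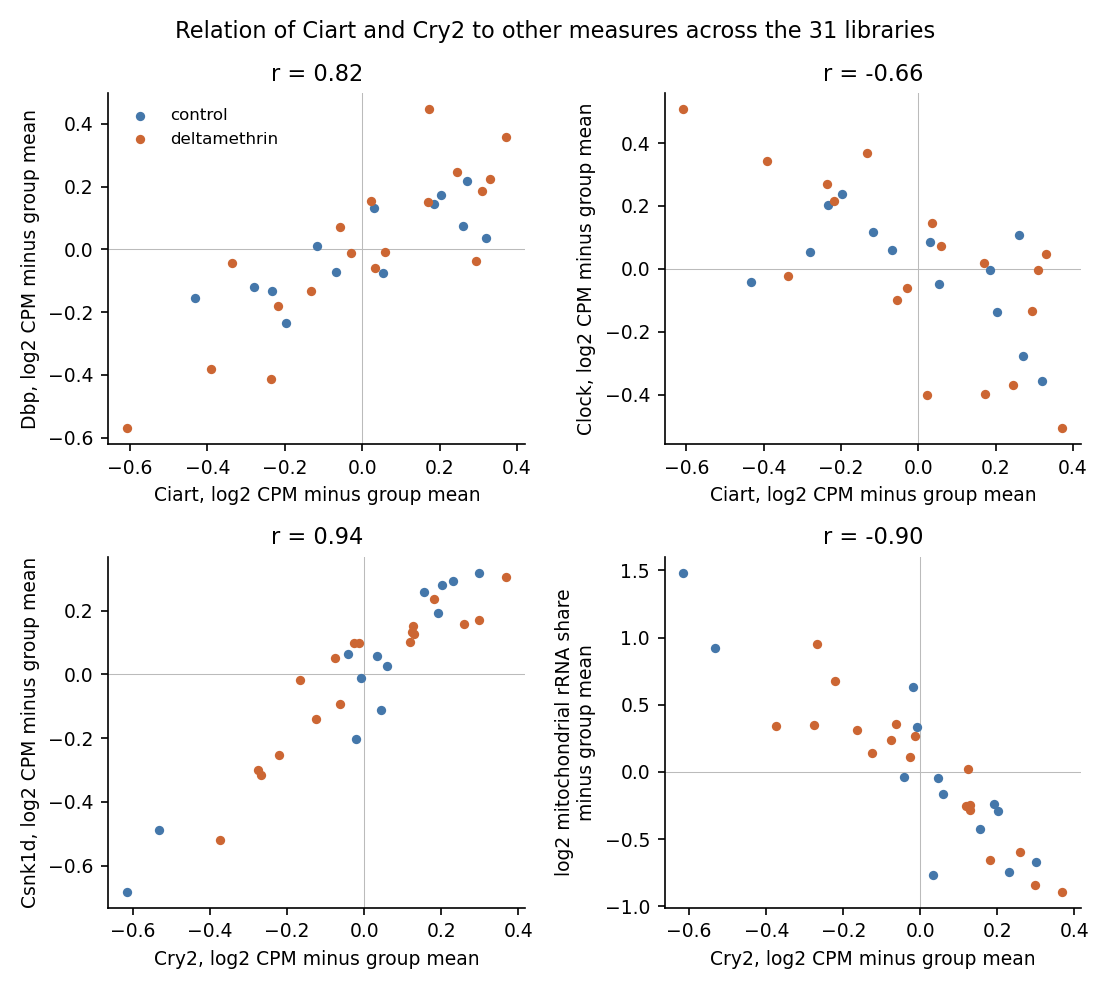
Log2 CPM of Ciart against Dbp and Clock (top) and of Cry2 against Csnk1d and the log2 mitochondrial rRNA share (bottom), each minus its group mean, in 13 control (blue) and 18 deltamethrin (orange) libraries. Ciart rises with Dbp (r = 0.82) and falls with Clock (r = -0.66), and Cry2 rises with Csnk1d (r = 0.94) and falls with the mitochondrial rRNA share (r = -0.90).

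Cry1 passed with Arntl and Clock only. Its r was -0.42 with Arntl and -0.38 with Clock (rho -0.39 and -0.43; permutation p = 0.0136 and 0.0195, adjusted 0.0306 and 0.0421), and both turned positive without scaling factors (0.49 and 0.33). Within control r was -0.79 with Arntl and -0.61 with Clock, and within deltamethrin it was -0.16 and -0.30. Without control replicates 4 and 7, the 2 libraries farthest from the median of Cry1, it was -0.29 and -0.30. By r with Cry1, Arntl ranked 18464 and Clock 18001 of 19528 genes, so many genes had a more negative r. The call of Clock was lost with other (RLE) scaling factors, with the mitochondrial rRNA share regressed out and with the immediate early level regressed out (adjusted permutation p = 0.0521, 0.0516 and 0.112), and without control replicate 4, 7 or 10 or deltamethrin replicate 7, 8, 9, 10 or 13 (0.0514 to 0.103). That of Arntl was lost with the immediate early level regressed out (0.0743) and without control replicate 4, 7 or 10 or deltamethrin replicate 4 (0.0511 to 0.104). With the other 10 it lay between -0.16 and 0.32, and none passed. The highest r over all genes were with Uqcc1 (0.76), S100b (0.70) and Cd151 (0.69). The 5 largest r of the 72 pairs were of members of the set of 4. Cry2 and Bhlhe40, a transcriptional repressor of the clock, had an r of 0.93 (rho = 0.90), Csnk1e and Tef, a D-box activator, 0.89 (rho = 0.82), and Cry2 and Nr1d1, the REV-ERB alpha repressor, 0.89 (rho = 0.91). Csnk1e and Bhlhe40 (0.87, rho = 0.81) and Csnk1d and Bhlhe41 (0.85, rho = 0.76) came next. These 5 pairs, of 72, had a permutation p of 1e-05 and an adjusted p of 4.2e-05, and r was 0.77, 0.75, 0.71, 0.61 and 0.68 in this order after the mitochondrial rRNA share was regressed out. Without the 2 libraries farthest from the median of the first gene it was 0.89, 0.68, 0.92, 0.81 and 0.77. High values with these genes were common, and by r with the first gene of each pair the second ranked 131, 156, 471, 331 and 915 of 19528 genes. Npas2, which encodes a paralog of CLOCK, ran opposite to all 4, with r of -0.81 for Csnk1e, -0.79 for Csnk1d, -0.70 for Cry2 and -0.69 for Btrc (rho -0.63, -0.62, -0.51 and -0.57; adjusted permutation p for r = 4.2e-05, 4.2e-05, 0.000152 and 0.00012). Without the 2 libraries farthest from the median these were -0.61, -0.66, -0.50 and -0.51, and the pairs with Npas2 were chosen after their values were seen. After the mitochondrial rRNA share was regressed out they were -0.52, -0.42, -0.10 and -0.10 (adjusted permutation p = 0.0121, 0.0554, 0.649 and 0.650). Only the pair with Csnk1e then passed. By r with these 4 genes in the same order, Npas2 ranked 19261, 18561, 17688 and 17075 of 19528 genes.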

How the data were processed

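Total RNA of 31 mouse brain samples (13 control, 18 deltamethrin by the agent label) was sequenced on an Illumina NovaSeq, per the labels' protocols. The authors deposited a table of unnormalized counts, in whole numbers, for each Ensembl gene ID. Per the submitters' processing notes the build was GRCm38 and the tools included Trimmomatic, HISAT2, SAMtools and MultiQC; the counting tool, annotation and use of strand are not given in the sources used here. Columns were matched to samples by title, and replicates are numbered in sample order.

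Genes were filtered with filterByExpr (minimum count 10, minimum total 15), scaled by TMM and compared with edgeR 4.0.16 (R 4.3.3) by the quasi-likelihood F-test (robust, no covariates), with Benjamini-Hochberg adjustment over 19529 genes. SE was taken as the size of the log2 difference over the root of its F statistic. Log2 CPM has a prior count of 2. On simulated counts of this comparison (19441 genes, 50 per fold) 50 were called at 2-fold, 46 at 1.5-fold, 4 at 1.25-fold and 14 at 0.8-fold, and 7 unchanged genes. These counts were drawn independently for each gene, with a biological coefficient of variation of 20% for every gene. They hold no variation shared between genes, so the calls do not give the power of the real comparison. Correlations were computed in Python 3.11.15 with numpy 2.4.6. Alternatives were other scaling factors and filters, DESeq2 1.42.0, limma 3.58.1 (voom), covariates and leaving out each library.

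The 6 genes and all lists were chosen with earlier results of these data known. Genes named are the 6, the 3 of highest r with each, the listed genes with an unadjusted p under 0.05 (or the smallest of a list), up to 5 correlated pairs per family, and those marked as chosen later. Deposited counts matched 48435 gene IDs of GENCODE M21.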

Additional observations from a re-analysis of the deposited data

How the results depend on the processing

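No alternative (10 settings) and no fit that left out 1 of the 31 libraries gave a gene with an adjusted p under 0.05 (0 throughout), and the smallest adjusted p was 0.0531 with DESeq2 and 0.0521 without control replicate 5. The number of genes with an unadjusted p under 0.05 was 853, against 1948 with no count filter, 1796 with the mitochondrial rRNA covariate, 442 with the immediate early level as covariate (added after seeing the data) and 526 to 1389 when 1 library was left out, by over 1.5 times without control replicate 4, 7, 10 or 11 (1338, 1346, 526 and 560) or deltamethrin replicate 3, 8, 9 or 10 (552, 1383, 1389 and 1283). The log2 fold change of Ciart ran from -0.42 to -0.35 over the alternatives and from -0.45 to -0.38 without 1 library (adjusted p 0.106 to 0.999 and 0.143 to 0.982). Cry1 ran from -0.07 to -0.03 and from -0.09 to -0.06. For the other 4 genes the sign held under the 10 alternatives and changed in 1 leave-one-out fit each (Csnk1e 2), with values near 0.

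Without scaling factors 12 of 15 pairs among the 6 genes and 65 of 72 pairs with clock genes passed, against 6 and 35. There r was 0.49 for Cry1 and Arntl, 0.33 for Cry1 and Clock and 0.12 for Ciart and Arntl, each negative with TMM factors; the cause was not tested. There the median of all genes' log2 fold changes stood at 0.043. The counts were 6 to 7 and 30 to 36 when 1 library was left out, and 24 of 72 with the mitochondrial rRNA share regressed out. Of 696 values of 25 correlated pairs under alternatives, 655 had the reported sign and call, 38 lost the call and 3 were the sign changes above. Of the losses without 1 library 14 were of Ciart and Arntl, 8 of Cry1 and Clock and 4 of Cry1 and Arntl. The 25 pairs were the passing pairs of largest r in each family and the passing pairs of Ciart and Cry1. Weaker passing pairs of the set of 4 were not followed, so the count of kept calls does not cover them. No paired analysis was possible because numbers here only follow sample order and pair nothing. Counts of 170 or more per library for Ciart, the lowest of the 6, keep counting error below the spread between libraries.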
